A study of Mus musculus with 4 samples.

Results

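Expression of 6 transcription factor genes of effector CD8 T cells (Tbx21, Eomes, Runx3, Zeb2, Prdm1 and Bhlhe40) was compared between cultured mouse T cells named Tc1 and Tc9. The genes were chosen by function, but with earlier results of these data known. Each was read from the probe set that the platform annotation gives for its symbol. A probe set was found for 5 of the 6, among 19505 genes in all, with 1 probe set for each of the 5; Zeb2 is not analysed here. RNA from 4 Affymetrix arrays was measured, 2 from cells grown under a Tc1 cytokine condition and 2 from cells grown under a Tc9 cytokine condition, and the titles number the arrays of each group 1 and 2. The sources used here do not give the cytokines, culture times, strain, genotype or age, nor where the cells came from, and nothing says that the 2 arrays of a group came from separate cultures or animals. The p-values below therefore measure the spread between these samples, which may be technical.

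As background, Tc1 cells are cytotoxic CD8 T cells that produce interferon gamma, while Tc9 cells are a CD8 subset named for interleukin 9. T-bet (gene Tbx21) and Eomes are T-box factors that share a DNA-binding domain and switch on the genes of interferon gamma, perforin and granzymes. T-bet is induced by interleukin 12 and interferon gamma signals, and TGF-beta holds it down. Runx3 is a Runt-domain factor that keeps the CD8 genes on and the Cd4 gene off. Zeb2 acts below T-bet in terminal effector cells. Blimp-1 (gene Prdm1) is a zinc-finger repressor of memory genes, and Bhlhe40 is an activation-induced factor that binds E-boxes and represses clock genes.

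The sequences below are the 250 bases before an annotated start of 5 genes on which the results turn, from RefSeq on build GRCm38.p6. They are shown for Tbx21 and Eomes, the 2 factors that fell in Tc9, for Runx3, which did not pass the test, and for Gzmb and Prf1, 2 targets of these factors that fell. Capitals mark matches, on either strand, to 5 motifs: the T-box letters GGTGTGA, the Runt letters TGTGGT, the Zeb2 E-box CACCTG, the Bhlhe40 E-box CACGTG and the Blimp-1 letters GTGAAAG.
Tbx21, chr11:97115332-97115581, minus strand: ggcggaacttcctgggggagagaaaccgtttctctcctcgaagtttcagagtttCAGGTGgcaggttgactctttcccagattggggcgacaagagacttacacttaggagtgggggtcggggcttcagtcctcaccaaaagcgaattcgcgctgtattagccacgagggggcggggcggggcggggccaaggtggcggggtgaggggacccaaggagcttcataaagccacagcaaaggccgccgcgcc
Eomes, chr9:118477939-118478188, plus strand: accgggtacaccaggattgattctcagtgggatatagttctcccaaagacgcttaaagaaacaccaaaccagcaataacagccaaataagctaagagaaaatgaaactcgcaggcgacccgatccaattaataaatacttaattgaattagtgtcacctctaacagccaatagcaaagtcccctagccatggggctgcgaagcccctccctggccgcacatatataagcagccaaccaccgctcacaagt
Runx3, chr4:135120395-135120644, plus strand: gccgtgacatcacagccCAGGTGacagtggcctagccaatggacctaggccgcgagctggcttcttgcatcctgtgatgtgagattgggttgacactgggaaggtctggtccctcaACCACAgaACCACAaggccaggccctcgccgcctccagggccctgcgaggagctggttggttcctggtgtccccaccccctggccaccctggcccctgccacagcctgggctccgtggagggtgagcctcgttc
Gzmb, chr14:56262335-56262584, minus strand: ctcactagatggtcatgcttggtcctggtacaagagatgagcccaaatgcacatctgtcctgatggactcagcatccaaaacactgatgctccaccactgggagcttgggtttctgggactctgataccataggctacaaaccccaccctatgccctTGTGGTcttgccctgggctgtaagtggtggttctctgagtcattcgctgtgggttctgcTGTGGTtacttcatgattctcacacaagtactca
Prf1, chr10:61297586-61297835, plus strand: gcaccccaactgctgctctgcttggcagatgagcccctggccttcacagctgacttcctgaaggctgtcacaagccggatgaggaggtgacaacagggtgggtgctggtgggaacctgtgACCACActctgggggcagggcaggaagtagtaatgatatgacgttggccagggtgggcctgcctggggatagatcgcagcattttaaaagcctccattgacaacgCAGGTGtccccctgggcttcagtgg

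The Tbx21 window held a single match, a Zeb2 E-box on the reverse strand from -196 to -191 counted from the start site, and the Eomes window held 0 of the 5 motifs. The motifs were also counted in 32851 windows of this length, which leave out chr18 and are called all windows here. Of these, 17.2% held the Zeb2 E-box, 14.0% the Runt letters, 6.02% the Bhlhe40 E-box, 3.57% the Blimp-1 letters and 3.33% the T-box letters. The first Runx3 window held 2 Runt matches, from -134 to -129 and from -126 to -121, and a Zeb2 E-box from -233 to -228. Runx3 has a second annotated start in the table, whose window held none of the 5 motifs. The Gzmb window held 2 Runt matches, from -93 to -88 and from -34 to -29, and the Prf1 window held a Runt match from -130 to -125 beside a Zeb2 E-box from -25 to -20. None of these matches overlapped another. A match is a run of letters in a window and not a measured binding site.

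Tbx21 was lower on both Tc9 arrays than on either Tc1 array. Its quantile normalized intensity was 685 and 535 in Tc1 (arrays 1 and 2) and 183 and 138 in Tc9. The groups did not overlap, and the Tc1 level was the higher within each number. For 15.2% of all genes both Tc9 arrays lay below both Tc1 arrays. The mean fell from 610.0 ± 107 (SD, n = 2) to 160.4 ± 31.9, a log2 change of -1.83 ± 0.22 (SE; 95% interval -2.34 to -1.32; limma adjusted p = 0.0166), or 3.55-fold. All changes are on the log2(intensity + 16) scale, which understates the changes of dim genes. Within the numbers the changes were -1.82 and -1.84. The deposited Tc9 signal lay close to background: it was 134 on array 1 and 177 on array 2, where 95% of the negative control probe sets stayed under 123 and 197. That value, taken on each array, is called the control threshold here. The size of the fall is therefore uncertain. Leaving the intensities unscaled ended the call (adjusted p = 1.00), as did a variance model without the intensity trend (0.0627).

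Eomes, the second T-box factor, fell by 1.98 ± 0.15 on the log2 scale (SE; 95% interval -2.34 to -1.63; limma adjusted p = 0.00367), or 3.96-fold. It measured 1053 and 1050.3 in Tc1 and 250.1 and 258 in Tc9. The replicates lay close together in each group, with SDs of 1.89 and 5.29 (n = 2). Both Tc9 values lay below both Tc1 values, as for 15.2% of all genes. Within the numbers the changes were -2.01 and -1.96. All 4 Eomes signals lay above the control threshold, as the Tbx21 signal on Tc9 array 2 did not. The deposited Eomes Tc9 signals were 179 and 333. The brightest of 23 antigenomic background probe sets, another kind of control, reached 308 and 350 on these arrays. The Eomes Tc9 level was therefore not clear of every background control. The call was lost with the intensities as deposited (adjusted p = 1.00), where the change was -1.99. The 95% intervals of the Eomes and Tbx21 falls overlapped, and the difference between the falls was not tested.

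Of the 5 measured factors, these 2 passed the test and both were lower in Tc9, where 0.179% of all genes were called lower, 0.395% higher and 0.574% in either direction. Among the 35 genes called lower, Eomes had the 14th and Tbx21 the 18th largest fall. The spread of the fit came from 2 residual degrees of freedom and 5.10 that limma borrowed from other genes. With the replicate number as a block, Eomes (adjusted p = 2.65e-99) and Tbx21 (1.05e-58) kept their calls. That fit calls 14.0% of all genes (7.56% lower and 6.40% higher), and its prior degrees of freedom are infinite, so that it takes the spread of each gene from its intensity alone. With the block and no intensity trend, an alternative chosen after seeing the data, the adjusted p was 7.17e-05 for Eomes and 8.80e-05 for Tbx21.

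**Figure D1:**
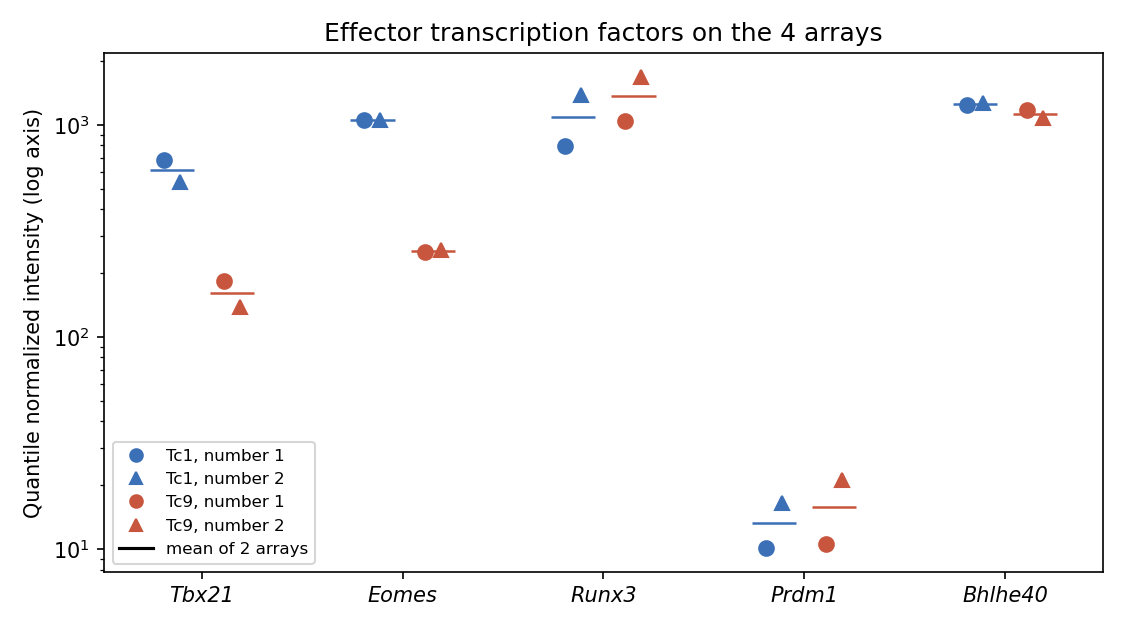
Quantile normalized intensity (log axis) of the 5 measured factors on each array, with Tc1 in blue, Tc9 in red, circles for arrays numbered 1, triangles for those numbered 2 and a line at the mean of 2 arrays. Tbx21 and Eomes separate by group, Runx3 separates more by number, Bhlhe40 lies between 1073 and 1273, and Prdm1 lies below 22 on every array.

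Runx3 was at a high signal in both groups and did not pass the test. It measured 792 and 1388 in Tc1 and 1039 and 1688 in Tc9. The groups overlapped, since the Tc1 array numbered 2 lay above the Tc9 array numbered 1, although within each number the Tc9 array was the higher, by 1.31-fold and 1.21-fold. The log2 change was 0.33 ± 0.31 (SE; 95% interval -0.39 to 1.06; limma adjusted p = 1.00). Arrays numbered 2 exceeded those numbered 1 by 0.80 in Tc1 and 0.69 in Tc9 on the log2 scale, a shift larger than that of 97.4% of all genes. With the number as a block the change passed (adjusted p = 3.25e-05), and with the block and no intensity trend it did not (0.110). Leaving out the Tc1 array numbered 1 or the Tc9 array numbered 2 turned the change to -0.069 and -0.015. The number coincides with a difference in how the deposited values were written, so that a difference between cultures and one in processing cannot be told apart.

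Bhlhe40 measured 1239.8 and 1273 in Tc1 and 1179 and 1073 in Tc9. Both Tc9 values lay just below both Tc1 values, an order that 15.2% of all genes shared. The log2 change was -0.16 ± 0.13 (SE; 95% interval -0.47 to 0.15; limma adjusted p = 1.00), with -0.071 and -0.24 within the numbers. The interval leaves out a change as large as that of Eomes or Tbx21, and Bhlhe40 missed the threshold with the block as well (0.122). Its 4 deposited signals all lay above the control threshold.

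Prdm1 was near background on all 4 arrays, at 10.1 and 16.4 in Tc1 and 10.5 and 21.2 in Tc9. In the deposited values it lay between 8.67 and 24.5, against control thresholds from 123 to 218. The groups overlapped, and the log2 change was 0.11 ± 0.19 (SE; 95% interval -0.33 to 0.55; limma adjusted p = 1.00). A change in Prdm1 could not be measured reliably from this probe set, and the value does not show that Blimp-1 is absent from the cells.

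**Figure D2:**
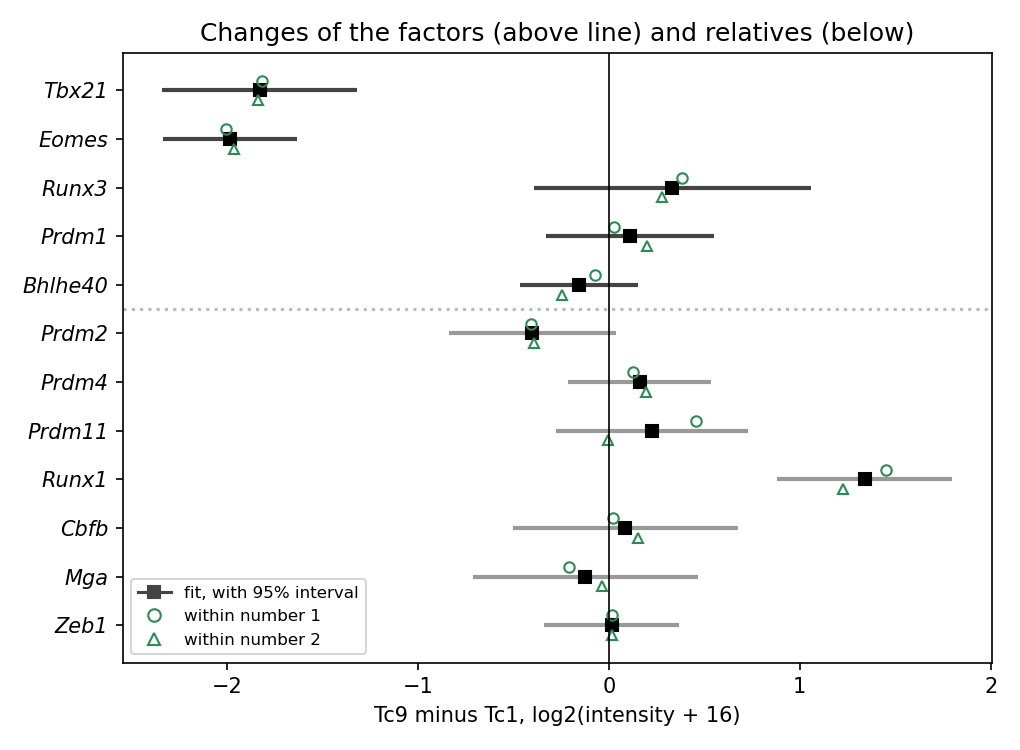
Log2 change, Tc9 minus Tc1, of the 5 measured factors (above the dotted line) and of 7 family relatives above the control threshold on at least 3 arrays (below it), as the fitted change with its 95% interval (squares and bars) and the change within each number (open symbols). The intervals of Tbx21, Eomes and Runx1 lie clear of 0, and those of the other 9 genes include 0.

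The family relatives of the factors were next examined for changes beside them. Of 30 measured relatives 1 rose, 0 fell and 29 did not pass by limma, where 0.395% of all genes rose and 0.179% fell. The median log2 change was 0.036, beside -0.0030 over all genes. The riser was Runx1, the Runt-domain relative best known from blood stem cells and early T cell development. It measured 153 and 194 in Tc1 against 446 and 477 in Tc9, or a log2 change of 1.34 ± 0.19 (SE; limma adjusted p = 0.0416; 1.45 and 1.23 within the numbers). Both Tc9 values of Runx1 lay above both Tc1 values, as for 14.0% of all genes. Its call was lost with the intensities as deposited (adjusted p = 1.00), with median centring (0.193), with a pseudocount of 64 (0.0550) and without the intensity trend (0.0745). On 1 of the 2 Tc1 arrays Runx1 lay below the control threshold. Cbfb, the partner that all Runt factors need to bind DNA, measured 773 and 501 in Tc1 and 783 and 559 in Tc9 (change 0.086 ± 0.25, SE).

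Of 14 measured T-box relatives 0 passed by limma, also at an unadjusted p under 0.05 and with the block, and 12 lay below the control threshold on all 4 arrays. Over all 19505 genes, 2.96% had a positive and 2.38% a negative change at an unadjusted p under 0.05. Mga, a large T-box protein that binds MAX and was the brightest of them, measured 505 and 694 in Tc1 and 434 and 676 in Tc9 (change -0.12 ± 0.25, SE). Zeb1, the relative of Zeb2 linked to memory T cells, measured 534 and 562 in Tc1 and 539.7 and 568 in Tc9. Its change of 0.014 ± 0.15 (SE; 95% interval -0.34 to 0.37) turned to -0.00015 with the intensities as deposited and to -0.022 with median centring. Of 12 Prdm relatives 9 lay below that threshold on all arrays. Prdm4 was the brightest, at 418 and 388 in Tc1 and 458 and 447 in Tc9. Prdm2, a histone methyltransferase, had the largest negative change of the relatives, at -0.40 ± 0.19 (SE; limma adjusted p = 1.00; with the block 0.00459). Bhlhe41, the close relative of Bhlhe40, lay between 11.3 and 14.3 on the 4 arrays, below that threshold on each.

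The RNA of some genes in the signals known to control T-bet differed between the groups. Receptor protein and signalling were not measured, and a link from these genes to the fall of Tbx21 was not tested. Of 19 measured upstream genes 3 fell, 1 rose and 15 did not pass by limma, where 0.179% of all genes fell and 0.395% rose. With the block 4 fell and 8 rose, where 7.56% of all genes fell and 6.40% rose. The median log2 change of the 19 was 0.19. Both chains of the interleukin 12 receptor fell. Il12rb2 measured 826 and 1516 in Tc1 and 78.0 and 142 in Tc9 (-3.22 ± 0.34, SE; adjusted p = 0.0115), below the control threshold on both Tc9 arrays. Il12rb1 measured 663 and 787 in Tc1 and 275 and 326 in Tc9 (-1.23 ± 0.18, SE; adjusted p = 0.0414). Stat4, which carries the interleukin 12 signal, measured 734 and 952 in Tc1 and 336 and 452 in Tc9, and its change of -1.07 did not pass (adjusted p = 0.120; with the block 5.60e-31).

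Irf1, a transcription factor induced by interferon gamma, fell from 1861 ± 47.4 to 1002 ± 63.4 (SD, n = 2; log2 change -0.88, limma adjusted p = 0.0416). Ifngr2, a receptor chain for interferon gamma, measured 238 and 262 in Tc1 and 500.2 and 608 in Tc9 (1.09, adjusted p = 0.0619; with the block 6.73e-24). Tgfbr1, a TGF-beta receptor chain, rose from 128 ± 28.4 to 911 ± 163 (SD, n = 2; log2 change 2.69, limma adjusted p = 0.00431), and lay below the control threshold on both Tc1 arrays. Tgfbr2, its partner chain, measured 366 and 339 in Tc1 and 718 and 726 in Tc9, with a change of 1.00 that missed the threshold (adjusted p = 0.0503; with the block 5.40e-25). Stat5a and Stat5b, which carry the interleukin 2 signal, had changes of 0.94 and 0.89 that missed it too (adjusted p = 0.0647 and 0.0572; with the block 6.00e-68 and 7.38e-28). The calls of Il12rb1 and Irf1 were lost with median centring (adjusted p = 0.240 and 0.113), and those of Il12rb1, Irf1 and Tgfbr1 with the intensities as deposited (1.00, 1.00 and 0.142). Without the intensity trend those of Il12rb1 (0.0969), Il12rb2 (0.0690) and Irf1 (0.132) were lost. A pseudocount of 64 ended the call of Il12rb1 (0.0529), and the robust variance model (0.0525) or leaving out the Tc1 array numbered 1 (0.0534) ended that of Irf1.

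Genes that T-bet and Eomes are known to induce were lower in part. Of 18 measured, 5 fell, 0 rose and 13 did not pass by limma, where 0.179% of all genes fell and 0.395% rose. With the block 9 fell and 4 rose, where 7.56% of all genes fell and 6.40% rose. The median log2 change of the 18 was -0.45 (-0.42 and -0.47 within the numbers). Gzmb, the protease granzyme B, measured 6787 and 7002 in Tc1 and 466 and 472 in Tc9 (-3.83 ± 0.12, SE; adjusted p = 0.000110). Prf1, the pore former perforin, measured 823 and 540.4 in Tc1 and 159.6 and 113 in Tc9 (-2.18), where both signals lay below the control threshold. Ifng, the cytokine gene, fell by 0.97 and Ccl4, a chemokine, by 1.21, and Il12rb2 was the fifth. Beside the 5 falls, Cxcr3, a chemokine receptor that T-bet induces, measured 205 and 216 in Tc1 and 375 and 549 in Tc9, a positive change of 1.05 (adjusted p = 0.167; with the block 1.94e-19). Xcl1 and Nkg7, the 2 genes of this list whose windows held the T-box letters, had changes of 0.18 and 0.47 that did not pass (adjusted p = 1.00 and 0.272; with the block 0.00190 and 1.18e-16). The Runt letters stood in 7 of the 16 windows found for 14 of the 18 genes, beside 14.0% of all windows. They also stood in 8 of the 24 windows found for the cell type markers described below.

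Of the 18, 7 never rose above the control threshold, among them Klrg1, Cx3cr1 and S1pr5, surface receptors of terminal effector cells. With the intensities as deposited the calls of Prf1 (adjusted p = 0.885), Ifng (1.00) and Ccl4 (1.00) were lost, without the intensity trend those of Prf1 (0.0745), Ifng (0.140), Ccl4 (0.0690) and Il12rb2, and with median centring that of Ccl4 (0.0884). Of 5 measured genes that T-bet is known to repress, 0 passed by limma (at an unadjusted p under 0.05, 2 had a positive and 1 a negative change, the same numbers as with the block; 2.96% and 2.38% of all genes). Of these 5, 2 had a positive and 3 a negative change, with a median of -0.15. Pdcd1, the inhibitory receptor PD-1, measured 1233 and 1146 in Tc1 and 1850 and 1655 in Tc9 (0.55, adjusted p = 0.242; with the block 8.70e-16). Il2, the gene of interleukin 2, went the other way, with a change of -0.86 (limma adjusted p = 0.301; with the block 8.89e-08). Its signals lay below the control threshold on both Tc9 arrays.

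The genes that Runx3 is known to induce moved in opposite directions. Of 10 measured, 3 fell (Gzmb, Prf1 and Ifng, all shared with the list above), 1 rose and 6 did not pass by limma, with a median of -0.48. Over all genes, 0.179% fell and 0.395% rose. With the block 6 fell and 3 rose, where 7.56% of all genes fell and 6.40% rose. The riser by limma was Itgae, the CD103 integrin chain, at 134 and 149.7 in Tc1 and 1875 and 1747 in Tc9 (3.54 ± 0.16, SE, adjusted p = 0.000342). Itgae is also known as a TGF-beta target, and lay below the control threshold on both Tc1 arrays. Cd8a, the gene of the CD8 alpha chain, measured 5255 and 4603 in Tc1 and 5306 and 4151 in Tc9 (change -0.067 ± 0.15, SE; 95% interval -0.42 to 0.28). Cd4 and Zbtb7b, which Runx3 silences, lay between 38.4 and 137 and below that threshold on all 4 arrays.

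Lists tied to Zeb2, Blimp-1 and Bhlhe40 were counted in the same way. Over all genes the limma test called 0.179% lower and 0.395% higher. Of 11 measured genes of the Zeb2-dependent terminal effector list, Gzmb, Prf1 and the surface protein gene Ly6c2 fell, the last from 792 ± 170.5 to 141 ± 19.5 (SD, n = 2; log2 change -2.36, limma adjusted p = 0.00581). Both Tc9 signals of Ly6c2 lay below the control threshold, and its call was lost with the intensities as deposited (adjusted p = 0.540). Of the 11, 7 lay below the control threshold on all arrays. Of 4 measured genes that Zeb2 is known to repress, 1 rose by limma and 3 had a negative change, with a median of -0.10. With the block 1 rose and 1 fell (Il2, -0.86), where 6.40% of all genes rose and 7.56% fell. The riser was Cdh1, the gene of E-cadherin, at 73.1 and 78.9 in Tc1 and 222 and 266 in Tc9 (1.49 ± 0.22, SE, limma adjusted p = 0.0486). Both Tc1 signals of Cdh1 lay below that threshold, and its call was lost with the intensities as deposited (adjusted p = 1.00), with median centring (0.0756) and with a pseudocount of 64 (0.0721).

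Among 10 measured genes that Blimp-1 is known to repress, 1 rose and 0 fell by limma, with a median of 0.10. With the block 3 rose and 2 fell, where 6.40% of all genes rose and 7.56% fell. The riser by limma was S1pr1, the receptor for lymph node exit (60.4 and 84.9 in Tc1, 253 and 327 in Tc9). The S1pr1 log2 change was 1.79 ± 0.25 (SE, adjusted p = 0.0377), with both Tc1 signals below the control threshold. Its call was lost with the intensities as deposited (adjusted p = 1.00), with median centring (0.0585), with a pseudocount of 64 (0.0585) and without the intensity trend (0.0690). Klf2, the activator of S1pr1, measured 101 and 111 in Tc1 and 333 and 275 in Tc9 and missed the test's threshold (1.39, adjusted p = 0.0512; with the block 1.25e-22). Its Tc1 signals also lay below the control threshold on both arrays. Of the 12 genes listed for Bhlhe40 and the clock, 0 passed by limma (at an unadjusted p under 0.05, 3 had a positive and 2 a negative change, against 2.96% and 2.38% of all genes; with the block, 3 rose and 3 fell), and 6 lay below the control threshold on all arrays. Of the 12 windows found for 10 of these genes, 5 windows (4 genes) held the Bhlhe40 E-box, beside 6.02% of all windows. The genes were listed for known links to Bhlhe40 or the clock, so this count is a description. A link to Bhlhe40 was not tested.

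**Figure D3:**
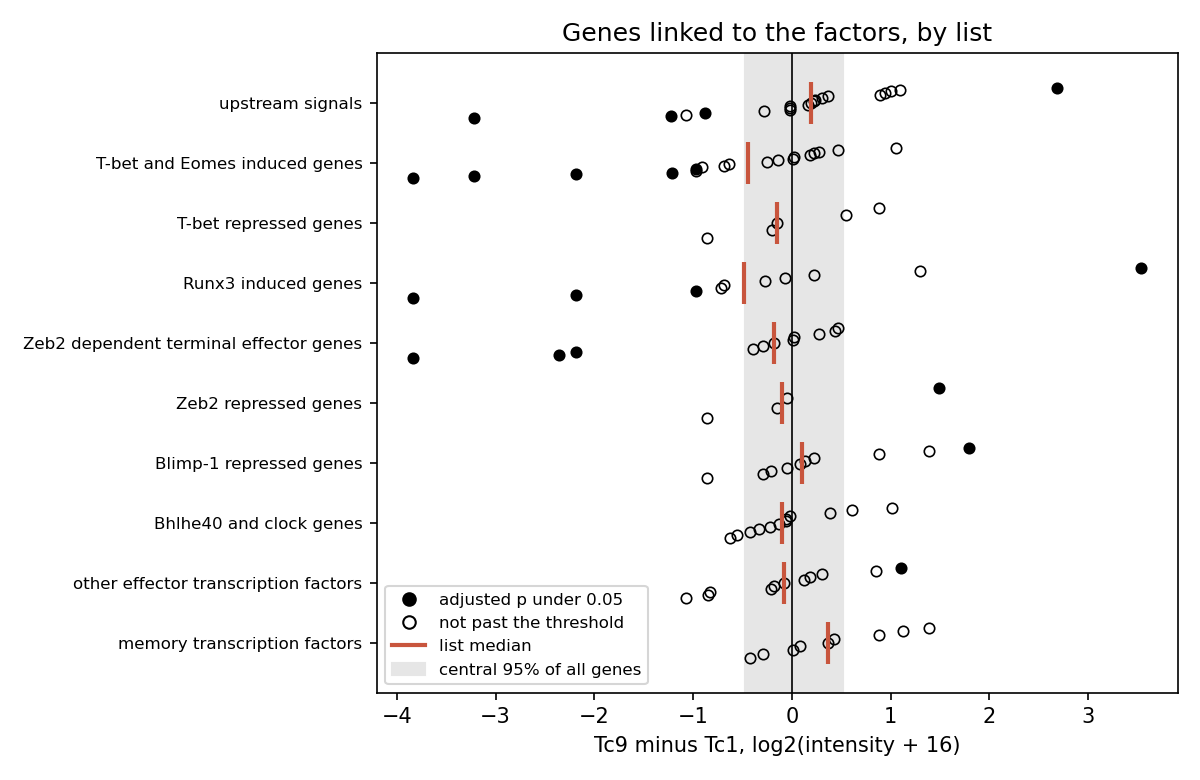
Log2 change, Tc9 minus Tc1, of the measured genes of 10 lists tied to the factors (filled points passed the gene test, open points did not, red lines are list medians), with the grey band holding the central 95% of all genes, from -0.47 to 0.51. The lists share genes such as Gzmb and Prf1; the T-bet and Eomes induced list has 5 filled points below 0 and none above.

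Other transcription factors of the same cells were set beside the members. Of 11 measured effector factors 1 rose and 0 fell by limma, where 0.395% of all genes rose and 0.179% fell. With the block 3 rose and 3 fell, where 6.40% of all genes rose and 7.56% fell. The median log2 change of the 11 was -0.085. The riser by limma was Id2, an inhibitor of E proteins, from 419 ± 11.5 to 922 ± 47.3 (SD, n = 2, log2 change 1.11, limma adjusted p = 0.0276). The Id2 call was lost as deposited (adjusted p = 1.00), with median centring (0.161) and without the intensity trend (0.0727). Of 9 measured memory factors 0 passed by limma (at an unadjusted p under 0.05, 5 had a positive and 1 a negative change, against 2.96% and 2.38% of all genes, and as many passed with the block). Of the 9, 7 had a positive change, as had 49.2% of all genes, and the median was 0.36. Foxo1, which keeps T cells quiescent, measured 409 and 503 in Tc1 and 918 and 1101 in Tc9 (1.12, adjusted p = 0.0533; with the block 2.20e-38).

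The genes with the pattern most like each member over the 4 arrays were found by Euclidean distance between log2 values centred on each gene's own mean, among 7325 genes above background on at least 2 arrays. For Eomes they were Gbp3 (distance 0.12), Gbp2 (0.13) and Ly6c1 (0.16), with log2 changes of -1.93, -2.09 and -2.09. For Tbx21 they were Prss16 (0.25), Plek (0.31) and Gbp4 (0.33), with changes of -1.83, -1.59 and -1.80. These 6 were chosen for their likeness, so that their values are a description. All 6 had a call, which each lost with the intensities as deposited (adjusted p between 0.778 and 1.00). Plek lost it also with a pseudocount of 64 (0.0665), with the robust variance model (0.0512) and without the intensity trend (0.138). Both Tc9 signals of Prss16 lay below the control threshold. For Runx3 the nearest were Flna (0.054), Zmym2 (0.065) and Abcc1 (0.072), each higher on the arrays numbered 2 than on those numbered 1 in both groups. For Prdm1 they were Bag1 (0.025), Med25 (0.026) and Plekha3 (0.033), and for Bhlhe40 Pogk (0.016), Urm1 (0.023) and Ddx24 (0.029), with changes between -0.17 and 0.12. Near 0 change, many genes lie at such small distances.

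The labelled cell type was checked against its markers. All 5 CD8 T cell markers (Cd8a, Cd8b1, Cd3d, Cd3e and Cd3g) lay above the control threshold on all 4 arrays, with a summed intensity between 17235 and 18139 in Tc1 and between 18338 and 18969 in Tc9. Both measured CD4 T cell markers, all 5 myeloid, all 3 NK cell, all 4 mast cell or basophil and the single gamma-delta and erythroid markers measured lay below it on all arrays, and of 4 B cell markers Cd79b alone passed it, on 1 Tc9 array. The summed myeloid level was 194 in both Tc1 arrays and 212 and 247 in Tc9, and that of the B cell markers 132 and 211 in Tc1 and 167 and 245 in Tc9. The part of other cells in the results was not tested. In bulk RNA, fewer cells that express a factor and less of its RNA per cell cannot be told apart.

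Across settings the falls of Eomes and Tbx21 kept their direction while their calls varied. Over 15 alternatives the Eomes change lay between -2.05 and -1.81 and passed in 14, and the Tbx21 change lay between -2.04 and -1.59 and passed in 13. Leaving out any 1 array gave changes between -2.01 and -1.97 for Eomes and between -2.04 and -1.63 for Tbx21. The counts of passes include these fits, in which 1 array of a group is taken to vary like the other group. Passing in such a fit therefore adds little. The mean of all probe sets could not move the Eomes and Tbx21 changes, as each gene has 1 probe set. The block fit calls 14.0% of all genes, so passing there adds little as well. Runx3 passed in 1 of 15, Prdm1 in 0 of 14 (it is removed by the filter on low values) and Bhlhe40 in 0 of 15.

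**Figure D4:**
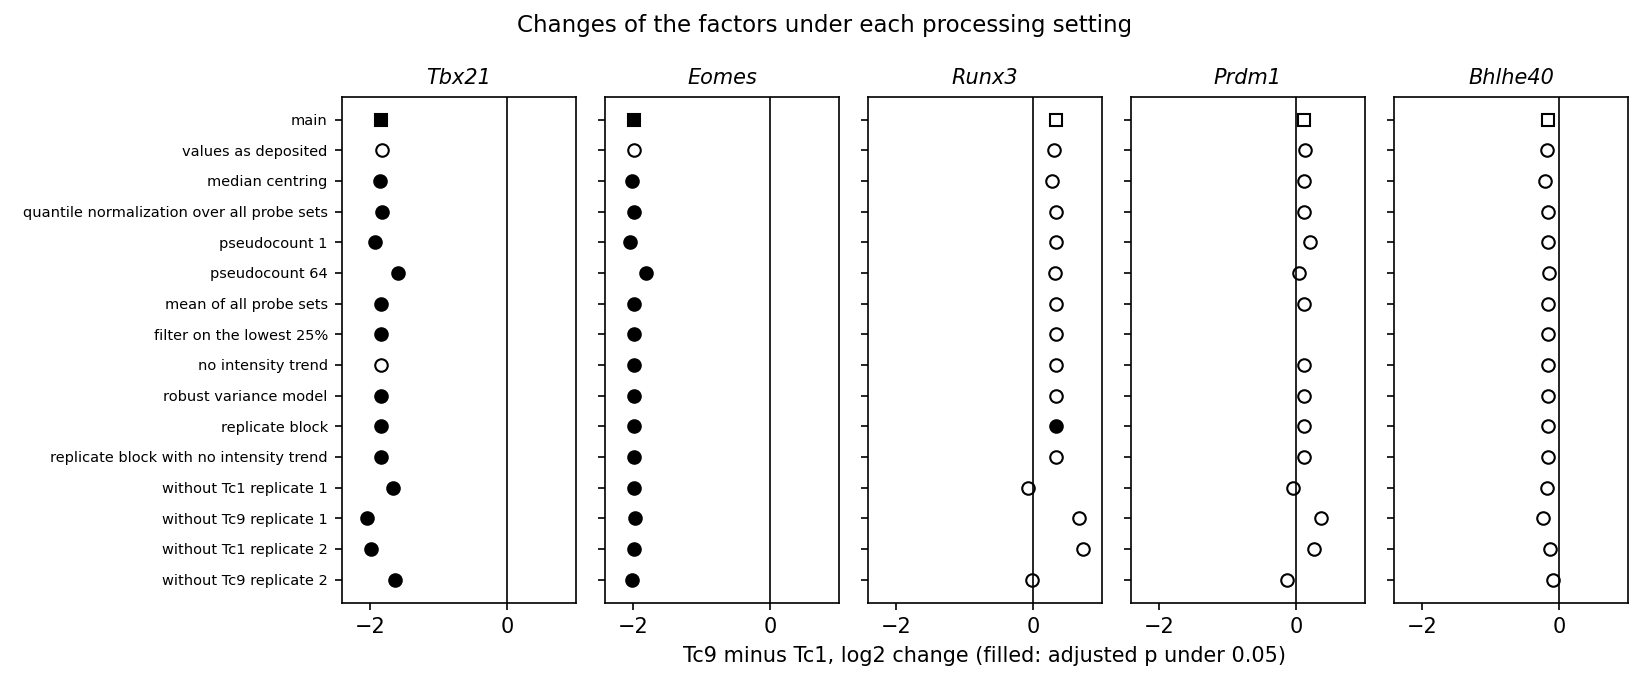
Log2 change, Tc9 minus Tc1, of each factor under the main setting (top row) and 15 alternatives, filled where the adjusted p was under 0.05. Eomes and Tbx21 stay between -2.05 and -1.59 throughout, Bhlhe40 stays between -0.22 and -0.093, and Runx3 and Prdm1 cross 0 when 1 array is left out.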

How the data were processed

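Each of 4 arrays has 28846 probe set values, deposited as intensity on what the values show to be a linear scale. How the authors corrected background and summarized probes is not given in the sources used here. Values were written with a median of 10 digits for arrays numbered 1 and of 7 for those numbered 2, so each number may be a pair processed apart. The labels do not say so. The main fit does not use the number, which enters only in the block and in the changes within the numbers. Deviations of same-numbered arrays from their group means correlated across genes with r = 0.729.

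Control probe sets (6640, of which 5222 are negative controls by name) were left out of normalization and tests. The platform annotation gave 19572 of the others a single symbol. These were quantile normalized, 16 was added and log2 was taken. Per gene the probe set with the highest mean was kept (19505 genes). Tc9 was compared with Tc1 in R 4.3.3 with limma 3.58.1 (eBayes with an intensity trend), with Benjamini-Hochberg adjustment over all genes and a threshold of 0.05. The fit was tested on simulated data: of 100 genes changed by 1 on the log2 scale 1 was called, and of 100 changed by 2, 37 were called. The number of arrays limits the precision.

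Genes named are the members, each list gene past the test, the brightest relative of each family and the 3 nearest patterns per member; others named, such as Stat4, Cxcr3 and Klf2, were chosen after their values were seen. The members and lists were chosen with earlier results of these data known. Alternatives were the scaling, pseudocount, filter, variance model, probe set rule, block and omission of each array. Sequences came from RefSeq (GRCm38.p6).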

Additional observations from a re-analysis of the deposited data

How the results depend on the processing

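The gene test called 112 genes, 77 higher and 35 lower in Tc9. It called 16 (13 and 3) with the intensities as deposited, 65 (42 and 23) without the intensity trend, 2724 (1249 and 1475) with the replicate number as a block, and 1057 (596 and 461) with the block and no intensity trend. Median centring called 77 (48 and 29), and leaving out 1 array between 175 and 278. Of the members 2 passed, against 0 as deposited, 1 without the intensity trend and 3 with the replicate block. The median change of the T-bet and Eomes induced genes moved to -0.26 and that of the Runx3 induced genes to -0.38 with a pseudocount of 64. That of the Zeb2-dependent genes was -0.19, and moved to -0.33 with a pseudocount of 1 and to -0.077 with 64. That of the memory factors moved to 0.30 with median centring. The Zeb1 change turned to -0.00015 as deposited and to -0.022 with median centring. Leaving out 1 array at a time, changes that turned sign ranged from -0.069 to 0.73 for Runx3, from -0.13 to 0.37 for Prdm1, from -0.026 to 0.79 for Flna, from -0.064 to 0.79 for Zmym2, from -0.15 to 0.67 for Abcc1, from -0.13 to 0.33 for Bag1, from -0.11 to 0.36 for Med25, from -0.17 to 0.36 for Plekha3, from -0.43 to 0.18 for Mga, from -0.22 to 0.39 for Cbfb, from -0.022 to 0.051 for Zeb1 and from -0.044 to 0.10 for Bhlhe41. The Cd8a change ranged from -0.24 to 0.11. Of 52 genes named (39 by rule, 13 outside it, Il2 not counted), 22 had a call. Of these 22, 19 lost it as deposited, 11 without the intensity trend, 7 with median centring and 5 with a pseudocount of 64. The cause was not tested. Signals near the negative controls, as for Prdm1, limit what can be measured.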
